A study of Mus musculus with 8 samples.

Results

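The genes described here are 6 mouse genes that metabolise thyroid hormone or respond to it: Dio2, Dio3, Klf9, Hr, Thrsp and Nrgn. They were chosen by symbol from 20190 genes listed in at least 1 of the 4 deposited tables. RNA sequencing compared 4 groups of C57BL/6 mice with 2 libraries each: Hdac3 KO neurospheres (KO 7 and KO 8), wild-type (WT) neurospheres (WT 5 and WT 6), Hdac3 KO cortex (KO 1 and KO 2) and WT cortex (WT 1 and WT 2). Neurospheres are floating cultures enriched in neural stem and progenitor cells, here grown from E16.5 cerebrum until day 4 in culture. Cortex is the dorsal cerebral cortex of pups at postnatal day 0. The design text counts 2 brains per group and calls the mutants conditional. Both cortex KO samples carry Emx1 in their titles, and Cre drivers of that gene act in dorsal telencephalic progenitors and their descendants. Vessels, microglia and ventrally born interneurons need not lack Hdac3. The driver behind the neurosphere KO and the alleles that the WT animals carried are not stated in the sources used here.

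Thyroid hormone reaches the brain mostly as thyroxine (T4), which the type 2 deiodinase Dio2, made largely by astrocytes, converts to the active hormone T3, while the type 3 deiodinase Dio3 inactivates both forms. T3 binds the nuclear receptors Thra and Thrb, which sit on DNA with retinoid X receptors and hold target genes down when no hormone is bound by recruiting corepressors such as Ncor1 together with the histone deacetylase Hdac3. Klf9, a zinc finger transcription factor, Hr, a nuclear corepressor and histone demethylase, and Nrgn, a postsynaptic calmodulin-binding protein, are T3-raised genes of the brain. Thrsp, also called Spot 14, is a lipogenic gene raised by T3 in liver and is also expressed in neural progenitors.

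The promoters of Dio2 and Thrsp are shown because these are the members whose RNA passed the test in at least 1 tissue. Each runs from 250 bases before to 50 bases after the gene's start, 5′ to 3′ on the gene's strand, from RefSeq on GRCm38.p6. The Dio2 window is chr12:90738989-90739288 on the minus strand and the Thrsp window is chr7:97417501-97417800 on the minus strand. Capitals mark TGACGTCA, the palindromic cAMP response element.
Dio2: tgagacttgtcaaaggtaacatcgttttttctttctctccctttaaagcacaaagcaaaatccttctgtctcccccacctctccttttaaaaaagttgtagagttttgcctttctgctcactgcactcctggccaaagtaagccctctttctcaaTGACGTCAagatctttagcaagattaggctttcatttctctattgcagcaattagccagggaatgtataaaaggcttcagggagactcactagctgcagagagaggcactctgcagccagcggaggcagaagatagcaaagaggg
Thrsp: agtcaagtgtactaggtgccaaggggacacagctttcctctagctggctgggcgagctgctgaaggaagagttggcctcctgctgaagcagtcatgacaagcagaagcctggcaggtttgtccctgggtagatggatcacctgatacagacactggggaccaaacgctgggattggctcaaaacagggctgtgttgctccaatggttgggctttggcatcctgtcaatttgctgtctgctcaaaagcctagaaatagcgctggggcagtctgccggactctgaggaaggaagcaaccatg
The Dio2 window had 44.7% G and C and held 1 TGACGTCA, whose first base lies at -95 from the start. Among all 32851 RefSeq promoter windows of this length, 1.79% held that motif on either strand. The Thrsp window had 54.3% G and C and held neither TGACGTCA nor its half-site TGACG, which is contained in the longer motif and which 20.812% of windows held. AGGTCA, the half-site that thyroid hormone receptors bind, was searched on both strands and was not in the windows of Dio2, Dio3, Klf9, Nrgn or Thrsp, against 16.255% of all windows. AGGTCA repeated on the same strand with 4 bases between the copies was in 5 of all windows and in none of these. The window of Klf9 held 1 TGACG at -46, outside any TGACGTCA. These matches describe letters in a short window; binding was not measured.

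Expression was given as FPKM, a fragment count divided by transcript length and by sequencing depth, which can be compared between genes because it is per length. Hdac3 itself had 18.03 and 20.5 FPKM in KO neurospheres, against 34.4 and 28.7 FPKM in WT neurospheres (log2 fold change -0.68, limma-trend adjusted p = 0.104). It had 26.8 and 27.1 FPKM in KO cortex, against 48.1 and 46.1 FPKM in WT cortex (-0.78, adjusted p = 0.000319). The authors' deposited tables, made with DESeq2, give -0.29 in neurospheres (adjusted p = 0.437) and -0.52 in cortex (adjusted p = 3.83e-07). The sources used here do not give the exons removed, and residual FPKM cannot be assigned to intact transcripts. The median gene rested on 348 to 440 fragments in a library from neurospheres and 582 to 711 in one from cortex, as implied by the width of Cufflinks' bounds. Of the 6 members, 5 were in each FPKM table and all of these passed the filter of a mean of at least 1 FPKM, while Dio3 was in neither. Each FPKM table holds no gene below about 1 FPKM in a WT library (lowest 0.999 in neurospheres), and KO values go below that, so a gene expressed in KO alone could not be listed. Over all genes the median log2 fold change was -0.15 in neurospheres and -0.10 in cortex. Rescaling by median ratios brought it to about 0 and turned the calls from 25 higher and 106 lower into 52 higher and 78 lower in neurospheres, and from 575 higher and 2124 lower into 1146 higher and 929 lower in cortex. The tissues are bulk samples, so fewer cells of a type and less RNA per cell cannot be told apart.

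In neurospheres, all 5 measured members had lower FPKM in both KO libraries than in both WT libraries, a pattern that 38.3% of the 11408 tested genes shared. Dio2 and Thrsp passed the test with lower levels in KO (limma-trend on log2(FPKM + 1), Benjamini-Hochberg adjusted p under 0.05), against 0.929% of tested genes. In cortex, Thrsp passed the test with a higher level in KO, against 4.8% of the 11988 tested genes. There Klf9, Hr and Thrsp had higher FPKM in both KO libraries than in both WT libraries, as did 15.5% of tested genes, and Dio2 and Nrgn overlapped. The median log2 fold change over the 5 members was -1.16 in neurospheres and 0.24 in cortex.

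**Figure D1:**
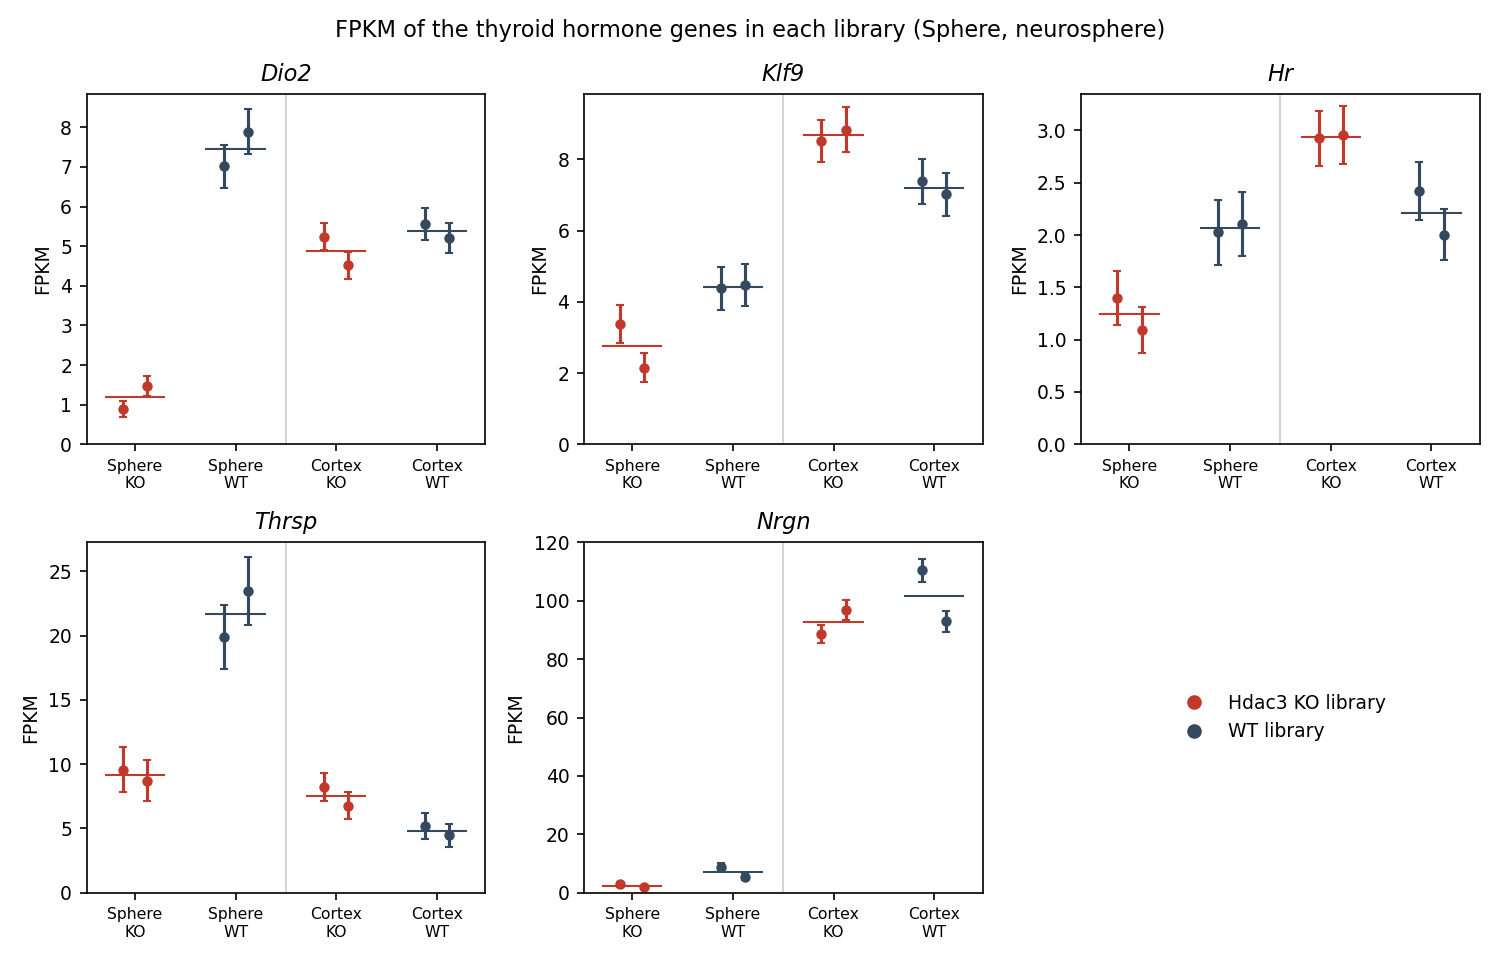
FPKM of the 5 measured members in each library, with KO left of WT within each tissue; points are libraries, vertical bars the lower and upper bounds that Cufflinks gave for that library, and horizontal lines the mean of the 2 libraries. Dio2 sits at 0.894 and 1.48 in KO neurospheres and between 4.51 and 7.89 in every other library.

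Dio2, the T4-to-T3 activating enzyme, had 0.894 and 1.48 FPKM in KO neurospheres, against 7.01 and 7.89 FPKM in WT neurospheres. Both KO libraries were far below both WT libraries, and the upper Cufflinks bound of the higher KO library, 1.73, stayed under the lower bound of the lower WT library, 6.46. The mean KO level was 0.159 times the WT mean. On the log2(FPKM + 1) scale Dio2 fell by 1.96 (SE 0.24, limma-trend adjusted p = 0.0266), and 17 of 11408 genes had a lower fold change. The authors' deposited table, made with DESeq2 from read counts, lists Dio2 at a log2 fold change of -2.001 with an adjusted p of 5.24e-15. That table calls 2.3% of its genes with an adjusted p lower in KO. Without WT 5 the limma-trend estimate was -2.04 (adjusted p = 0.281), and without WT 6 it was -1.89 (adjusted p = 0.0968). In both of these fits no gene passed.

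In cortex, Dio2 had 5.24 and 4.51 FPKM in KO, against 5.56 and 5.21 FPKM in WT. The higher KO library lay just above the lower WT library, so the groups overlapped. The log2 difference was -0.12 (95% interval -0.34 to 0.10, limma-trend adjusted p = 0.386). The authors' deposited table gives -0.04 (adjusted p = 0.887).

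Dio3, the inactivating deiodinase, can be described from the authors' deposited tables alone. The authors' deposited table for neurospheres gives it a mean normalised count of 1.95 and a log2 fold change of 0.01, and the one for cortex a mean normalised count of 17.1 and a log2 fold change of -0.15 (unadjusted p = 0.447). Neither of the authors' deposited tables gives Dio3 an adjusted p, which DESeq2 withholds from genes with few reads. At these low counts no change in Dio3 was called, which does not show that there was none. Its level per library is not analysed here.

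Klf9, the T3-raised zinc finger factor, had 3.39 and 2.15 FPKM in KO neurospheres, against 4.38 and 4.47 FPKM in WT neurospheres. Both KO libraries were lower, but they differed from each other by more than the higher of them differed from WT, and the log2 difference of -0.55 (SE 0.25) did not pass the test (limma-trend adjusted p = 0.271). In cortex Klf9 had 8.52 and 8.83 FPKM in KO, against 7.38 and 7.03 FPKM in WT, with no overlap. The difference of 0.24 (SE 0.08) did not pass on the deposited scale (limma-trend adjusted p = 0.0671). It was 0.34 after rescaling by median ratios (adjusted p = 0.0212), and the authors' deposited table gives 0.34 (adjusted p = 0.0387). The authors' deposited cortex table calls 6.35% of its genes higher in KO.

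Hr, the corepressor and demethylase whose RNA T3 raises in brain, was the lowest of the 5 measured members in each WT library. It had 1.40 and 1.09 FPKM in KO neurospheres, against 2.03 and 2.10 FPKM in WT neurospheres (log2 difference -0.45, SE 0.24, limma-trend adjusted p = 0.344). In cortex it had 2.92 and 2.96 FPKM in KO, against 2.42 and 2.00 FPKM in WT (0.30, SE 0.10, limma-trend adjusted p = 0.0634). As with Klf9, both KO libraries were below WT in neurospheres and above WT in cortex. The cortex difference was 0.38 after rescaling by median ratios (adjusted p = 0.0293), and the authors' deposited table gives 0.44 (adjusted p = 0.0209). Those are on the other side of the threshold from the value on the deposited scale.

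Nrgn, the postsynaptic calmodulin-binding protein, had 2.94 and 1.82 FPKM in KO neurospheres, against 8.88 and 5.56 FPKM in WT neurospheres. All KO values were below all WT values, yet the SE was the largest of the 5 members, and the log2 difference of -1.27 (SE 0.29) did not pass (limma-trend adjusted p = 0.0937). It passed where the spread was estimated over all 8 libraries (adjusted p = 0.0113). It did not pass with a pseudocount of 0.1 (adjusted p = 0.112), after median-ratio rescaling (0.0924) or after quantile normalization (0.1085). The difference was -1.51 without KO 7, -1.03 without KO 8, -0.975 without WT 5 and -1.57 without WT 6. The authors' deposited table gives -0.73 (adjusted p = 0.115). In cortex Nrgn had 88.5 and 96.9 FPKM in KO, against 110.4 and 93.0 FPKM in WT, and the groups overlapped (-0.13, limma-trend adjusted p = 0.316).

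Thrsp, the lipogenic protein, was lower in KO in neurospheres and higher in KO in cortex. It had 9.57 and 8.69 FPKM in KO neurospheres, against 19.9 and 23.5 FPKM in WT neurospheres. Each KO library was below each WT library, at a mean 0.421 times the WT mean. Thrsp fell by 1.16 on the log2 scale (SE 0.17, limma-trend adjusted p = 0.0387). In cortex it had 8.23 and 6.78 FPKM in KO, against 5.19 and 4.47 FPKM in WT. The cortex KO libraries were both above WT, at a mean 1.55 times the WT mean (log2 difference 0.54, SE 0.11, limma-trend adjusted p = 0.011). The authors' deposited tables give -0.94 in neurospheres (adjusted p = 0.0064) and 0.54 in cortex (adjusted p = 0.0336). Thrsp rests on 100 to 316 implied fragments per library. In neurospheres its adjusted p was 0.0553 after rescaling by median ratios, 0.24 without WT 5 and 0.0957 without WT 6. In cortex it was 0.0744 without KO 1 (difference 0.42) and 0.164 where the spread was estimated over all 8 libraries.

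**Figure D2:**
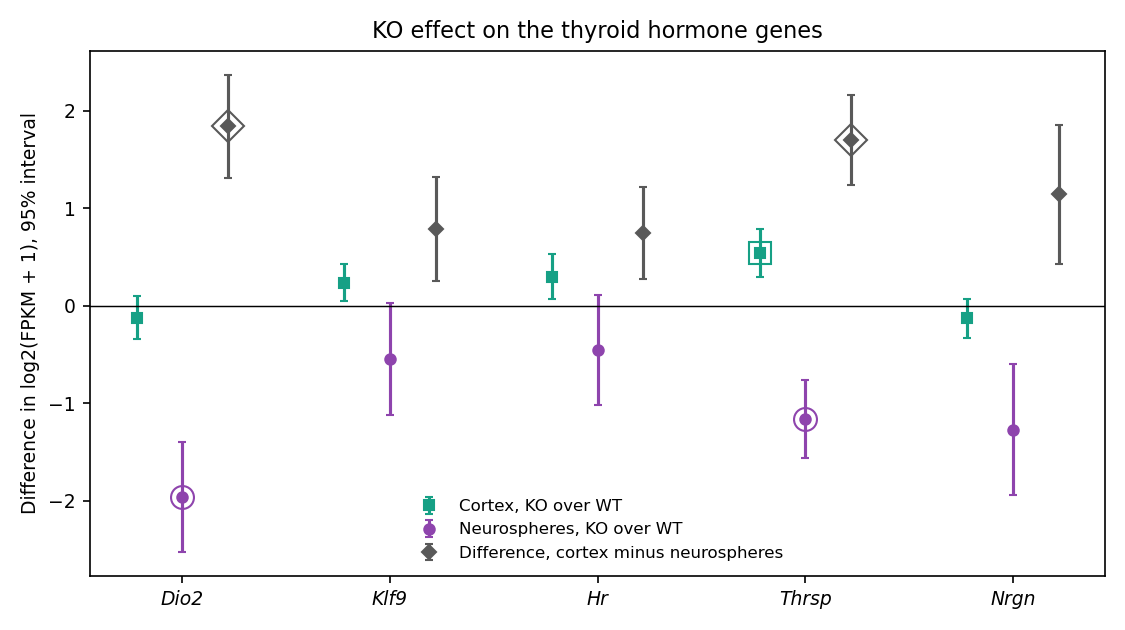
Difference between KO and WT in log2(FPKM + 1) for each measured member, with 95% intervals from limma-trend; squares are cortex, circles neurospheres and diamonds the cortex effect minus the neurosphere effect, and an outer ring marks an adjusted p under 0.05. Thrsp lies above 0 in cortex (0.54) and below 0 in neurospheres (-1.16).

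The KO effect was compared between tissues in 1 model over all 8 libraries, in which 1.4% of 10947 genes differed. That model takes 1 spread per gene for both tissues. Fitted alone, the tissues differed in spread, with an SE for Dio2 of 0.24 in neurospheres and 0.10 in cortex. Thrsp differed, with an effect of 0.54 in cortex and -1.16 in neurospheres, a difference of 1.70 (95% interval 1.24 to 2.17, limma-trend adjusted p = 0.0111). Dio2 differed as well, with -0.12 in cortex and -1.96 in neurospheres, a difference of 1.84 (1.31 to 2.37, adjusted p = 0.0127). Differences were also above 0 for Nrgn (1.14, adjusted p = 0.115), Klf9 (0.78, adjusted p = 0.139) and Hr (0.75, adjusted p = 0.118), none of which passed. The 2 tables were normalised separately, and age, culture and the cells sampled differ along with tissue, so what the difference follows cannot be told apart. Leaving out any 1 cortex library raised the adjusted p of Dio2 to between 0.0678 and 0.115 and that of Thrsp to between 0.0516 and 0.0987, with differences of 1.75 to 1.93 and 1.58 to 1.83.

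The order of levels among the members also differed between the tissues. In KO neurospheres Thrsp was highest by mean FPKM, Klf9 and Nrgn overlapped below it, and Hr and Dio2 overlapped below those. In WT neurospheres Thrsp was highest, Dio2 and Nrgn overlapped below it, and Klf9 and Hr came last. In KO cortex the order was Nrgn, Klf9, Thrsp, Dio2 and Hr, and in WT cortex Nrgn, Klf9, Dio2, Thrsp and Hr. Klf9 and Thrsp in KO cortex were next to each other, at 8.52 and 8.23 FPKM in their closest libraries, which is inside their Cufflinks bounds. The same holds of Dio2 and Thrsp in WT cortex, at 5.21 and 5.19 FPKM. Dio2 was thus below Thrsp in every neurosphere library and in both KO cortex libraries.

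Among the genes that bind, carry or sense the hormone, no transporter, receptor, corepressor or coactivator passed the test in neurospheres: 0 of 5 transporters, 0 of 4 receptors and partners, 0 of 7 corepressor genes (which include Hr and Hdac3) and 0 of 6 coactivators, against 1.15% of all tested genes passing in either direction. Their median log2 differences were -0.33, 0.12, 0.11 and 0.35, against -0.15 over all genes. Slco1c1, a T4 transporter, had 1.88 and 0.574 FPKM in KO neurospheres, against 3.26 and 3.22 FPKM in WT neurospheres (-0.995, limma-trend adjusted p = 0.173). Thra had 201.8 and 189.4 FPKM in KO neurospheres, against 165.0 and 155.6 FPKM in WT neurospheres (0.29, limma-trend adjusted p = 0.368), while the authors' deposited table calls it higher at 0.39 (adjusted p = 0.0427). Of the coactivators the authors' deposited table calls 1, Ncoa2, a receptor coactivator, higher in KO neurospheres at 0.79 (adjusted p = 0.000543). Ncoa2 had 21.5 and 21.5 FPKM in KO neurospheres, against 10.4 and 15.1 FPKM in WT neurospheres. Thrb had 2.33 and 1.58 FPKM in KO neurospheres, against 2.11 and 1.75 FPKM in WT neurospheres, and overlapped. Ncor1 (0.11, adjusted p = 0.713) did not pass. Crym, a cytosolic T3-binding protein, was listed at 0 and 0.0573 FPKM in KO neurospheres, against 1.26 and 1.26 FPKM in WT neurospheres, under the filter and so untested. It is listed only because WT reaches about 1 FPKM, which favours falls in KO. The authors' deposited table gives Crym in neurospheres a mean normalised count of 17.2 and a log2 fold change of -0.26 (DESeq2 unadjusted p = 0.19). That table gives it no adjusted p.

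In cortex, several of these genes passed, against 22.5% of all tested genes passing in either direction. Crym, the T3-binding protein, fell to 48.4 and 40.8 FPKM in KO cortex, against 76.6 and 82.0 FPKM in WT cortex (-0.82, limma-trend adjusted p = 0.0011), and was the 1 of 4 genes of activation, inactivation and binding to pass. After rescaling by median ratios, Slc7a5 (0.28) and Slc3a2 (0.24), the subunits of an amino acid carrier that also moves thyroid hormone, passed as higher. Slco1c1 had 15.4 and 13.6 FPKM in KO cortex, against 17.3 and 16.51 FPKM in WT cortex (-0.21, adjusted p = 0.0932).

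The receptors moved in opposite directions in cortex. Thra rose to 474.7 and 493.5 FPKM in KO cortex, against 377.9 and 375.9 FPKM in WT cortex (0.36, limma-trend adjusted p = 0.0067). Thrb fell to 0.591 and 0.799 FPKM in KO cortex, against 1.45 and 1.21 FPKM in WT cortex (-0.46, limma-trend adjusted p = 0.0188), with no library overlapping for either gene. After quantile normalization Thrb no longer passed (-0.22, adjusted p = 0.18). A gene this low is listed with FPKM only where WT reaches about 1 FPKM, which favours falls in KO. The authors' deposited table, made from read counts, calls Thrb lower in KO cortex at -0.62 (adjusted p = 0.0133). Gene-level values do not separate the T3-binding from the non-binding products of Thra, and Thra overlaps Nr1d1 on the opposite strand, so its level is uncertain where strand was not used in counting. On the deposited scale 1 of 7 corepressor genes rose, Tbl1x, a subunit of the Ncor1 complex (0.27, limma-trend adjusted p = 0.0269), and Hdac3 fell. After median-ratio and after quantile scaling 3 of the 7 rose, Tbl1x, its paralog Tbl1xr1 and Hr, and the authors' deposited table calls the same 3 higher. Ncor1 (-0.12, adjusted p = 0.223) did not pass. Of the 6 coactivators 0 passed.

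**Figure D3:**
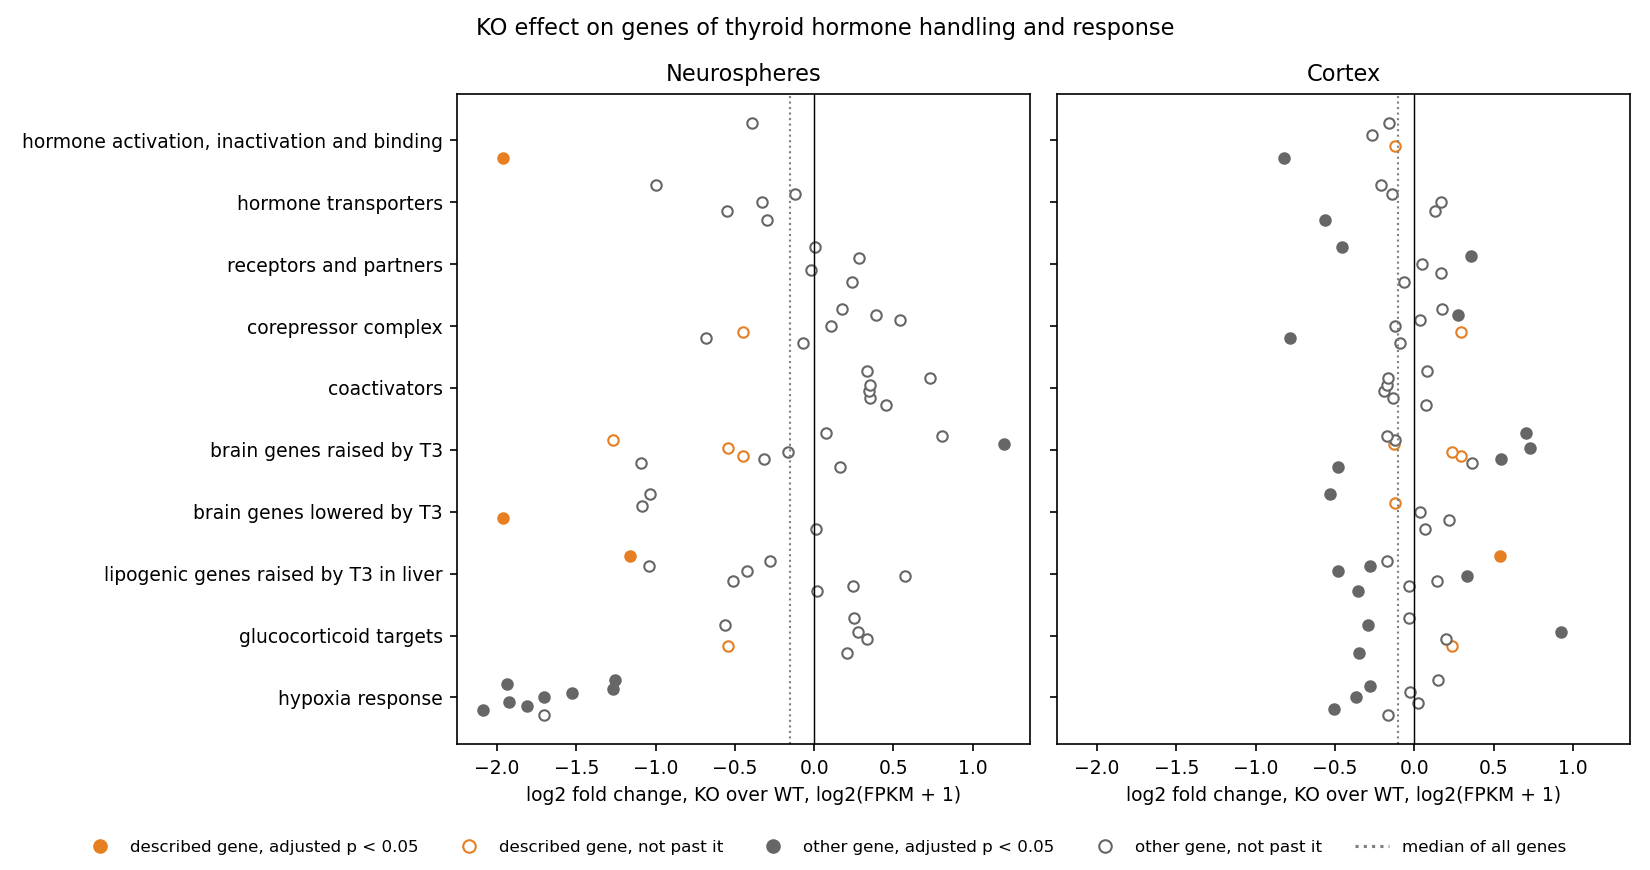
Log2 fold change, KO over WT, of every tested gene in each list of thyroid hormone handling and response, with neurospheres on the left and cortex on the right on the same scale; orange points are Dio2, Klf9, Hr, Thrsp and Nrgn, filled points have an adjusted p under 0.05 and the dotted line is the median of all genes. Of the hypoxia list, 8 of 9 genes are filled below 0 in neurospheres, where 0.929% of all tested genes passed as lower.

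Brain genes that T3 raises did not move as a block. In neurospheres 1 of 10 tested rose and 0 fell, against 0.219% of all tested genes higher and 0.929% lower, with a median of -0.24 against -0.15 over all genes. The gene that rose was Mbp, a myelin protein, at 10.1 and 11.9 FPKM in KO neurospheres, against 4.50 and 3.97 FPKM in WT neurospheres (1.19, limma-trend adjusted p = 0.0471). In cortex 3 of 10 rose and 1 fell, against 4.8% of all tested genes higher and 17.7% lower, with a median of 0.27 against -0.10 over all genes. Mbp rose by 0.73 (adjusted p = 0.0064), Stac2, an adaptor of calcium channels, by 0.71 (0.0083) and Flywch2 by 0.55 (0.0057), while Camk4, a calcium- and calmodulin-dependent kinase, fell by 0.48 (0.0088), all from limma-trend. The authors' deposited table does not call Mbp in cortex (0.27, adjusted p = 0.148). With median-ratio rescaling 5 of the 10 rose, Klf9 and Hr among them. Of the brain genes that T3 lowers, 1 of 4 fell in neurospheres, Dio2 itself, and 1 of 5 fell in cortex, the meiotic gene Syce2 (-0.53, limma-trend adjusted p = 0.017), which overlaps Gcdh on the opposite strand. The authors' deposited table does not call Syce2 in cortex (-0.40, adjusted p = 0.107) and calls 0 of 6 genes of that list lower there. The collagens Col6a1 and Col6a2 of that list were not in the neurosphere FPKM table. The authors' deposited table lists both higher in KO neurospheres, at 2.55 and 3.23 on the log2 scale.

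Among 8 lipogenic genes that T3 raises in liver, Thrsp alone passed in neurospheres, and it did not pass after median-ratio rescaling. Over all tested genes 1.15% passed in neurospheres in either direction, while in cortex 4.8% rose and 17.7% fell on the deposited scale. Me1, the malic enzyme, had 13.2 and 12.5 FPKM in KO neurospheres, against 32.2 and 23.5 FPKM in WT neurospheres (-1.04, limma-trend adjusted p = 0.0589), and the authors' deposited table calls it lower at -0.79 (adjusted p = 0.000601). In the opposite direction, Fasn, the fatty acid synthase, had 86.6 and 88.1 FPKM in KO neurospheres, against 50.7 and 67.1 FPKM in WT neurospheres, and the authors' deposited table calls it higher at 0.63 (adjusted p = 0.0027). In cortex 2 of the 8 rose, Thrsp and Fasn (0.34, limma-trend adjusted p = 0.025), and 3 fell, the glycerol phosphate dehydrogenase Gpd2 (-0.48, 0.0035), the acetyl-CoA carboxylase Acaca (-0.36, 0.0112) and Me1 (-0.28, 0.0264). After median-ratio rescaling Me1 no longer passed (-0.17, adjusted p = 0.133). The authors' deposited table calls neither Me1 (0.02, adjusted p = 0.962) nor Acaca (adjusted p = 0.999) in cortex. Of 6 genes that glucocorticoids raise, a list that includes Klf9, 0 passed in neurospheres. In cortex the kinase Sgk1 rose by 0.93 (limma-trend adjusted p = 0.000492), while the chaperone Fkbp5 (-0.35, 0.0199) and Tsc22d3 (-0.29, 0.0254) fell on the deposited scale and did not pass after median-ratio rescaling, under which 2 of the 6 rose and 0 fell.

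Genes of the hypoxia response were lower in KO neurospheres together with Dio2 and Thrsp. Of 9 tested, 8 fell, against 0.929% of all tested genes, with a median of -1.70 against -0.15 over all genes. Bnip3, a mitochondrial protein of mitophagy, had 5.59 and 4.76 FPKM in KO neurospheres, against 25.2 and 25.1 FPKM in WT neurospheres (-2.09, limma-trend adjusted p = 0.0089). Slc2a1, the glucose transporter, had 5.58 and 6.50 FPKM in KO neurospheres, against 27.3 and 24.6 FPKM in WT neurospheres (-1.94, adjusted p = 0.0097). Car9, a carbonic anhydrase, was listed at 0 in KO 7 and KO 8, against 2.36 and 2.64 FPKM in WT neurospheres. In cortex 3 of 7 fell, Egln3 (-0.50), Pdk1 (-0.37) and Slc2a1 (-0.28), against 17.7% of all tested genes, with a median of -0.17. After median-ratio rescaling 1 of 7 fell, and after quantile normalization 0 fell. Pdk1 is the 1 gene of this list that the authors' deposited table calls lower in cortex (-0.31, adjusted p = 0.0467). The part of this response in the levels of Dio2 and Thrsp was not tested.

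Markers of cell types that express these genes moved as well. Over all tested genes in neurospheres 0.219% rose and 0.929% fell. In neurospheres the summed FPKM of 8 astrocyte markers was 190.0 to 218.7 in KO, against 395.1 to 432.6 in WT. Much of that gap lay in 2 genes. Slc1a3, a glutamate transporter, had 75.2 and 77.0 FPKM in KO neurospheres, against 203 and 195 FPKM in WT neurospheres (-1.38). Sparcl1, a secreted glial protein, had 33.5 and 28.9 FPKM in KO neurospheres, against 96.4 and 87.0 FPKM in WT neurospheres (-1.53). These were the 2 of the 8 that fell, and 0 of the 8 rose. Without regard to the test 7 of 8 were below 0, Slc1a2 barely so (-0.03), and Gfap was above 0 (0.57). The sum of 7 radial glia markers was 738 to 912 in KO neurospheres, against 1026 to 1368 in WT neurospheres, with 0 of 7 passing. The sum of 7 interneuron markers was 305.6 to 318.5 in KO neurospheres, against 138.5 to 157.8 in WT neurospheres, and 6 of 7 rose. The 7 maturing excitatory neuron markers, which bear on Nrgn, summed to 222.1 to 267.7 in KO neurospheres, against 267.1 to 282.1 in WT neurospheres, and 0 of 7 passed. The 7 oligodendrocyte lineage markers, Mbp among them, overlapped at 219.8 to 228.9 in KO neurospheres, against 227.2 to 257.1 in WT neurospheres. Of 7 meningeal fibroblast markers 1 was in the neurosphere FPKM table, the matrix proteoglycan Dcn, which rose to 10.5 and 9.46 FPKM in KO neurospheres, against 2.98 and 1.71 FPKM in WT neurospheres (1.74, limma-trend adjusted p = 0.0358). The authors' deposited table calls 4 of the 5 with an adjusted p higher in KO neurospheres, against 3.49% of its genes with an adjusted p. Among them are the collagens Col3a1 (4.28) and Col1a1 (3.28).

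In cortex the radial glia sum was 1357 to 1445 in KO, against 1012 to 1112 in WT (4 of 7 rose). Over all tested genes in cortex 4.8% rose and 17.7% fell on the deposited scale. Most of the radial glia sum was Fabp7, at 1239 and 1183 FPKM in KO cortex, against 870 and 977 FPKM in WT cortex. Hopx, Pax6 and Vim also rose, Nes was nearly level (0.02), and Sox2 (-0.16) and Hes5 (-0.07) were below 0 without passing. The astrocyte sum was 364.0 to 402.4 in KO cortex, against 312.0 to 318.8 in WT cortex (3 of 8 rose and 2 fell, 0 of 8 falling after median-ratio rescaling). Gfap, the astrocytic intermediate filament, had 104.4 and 81.3 FPKM in KO cortex, against 20.4 and 21.4 FPKM in WT cortex. Without Gfap the astrocyte sum overlapped, at 282.7 to 298.0 in KO cortex, against 291.6 to 297.4 in WT cortex. The maturing excitatory neuron sum was 574.7 to 588.9 in KO cortex, against 421.5 to 430.4 in WT cortex (3 of 7 rose, Camk2b, Nefl and Nefm), although Nrgn overlapped. Camk2a (-0.17) and Syp (-0.05) of that list were below 0 without passing, and Grin2b was nearly level (0.03). Of 6 general neuron markers in cortex 1 rose, Rbfox3 (0.49, limma-trend adjusted p = 0.0086), and 1 fell, Neurod6 (-0.39, adjusted p = 0.007). The oligodendrocyte lineage sum was 77.3 to 88.2 in KO cortex, against 59.7 to 70.0 in WT cortex (4 of 7 rose), and the meningeal fibroblast sum was 87.5 to 94.5 in KO cortex, against 65.7 to 68.1 in WT cortex (6 of 7 rose). No listed marker in these tables was at 0 in a library. The part of these cell types in the members' levels was not tested.

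For each member, the genes most like it were taken as those with the smallest root mean square difference in log2(FPKM + 1) over the 8 libraries, after centring within each tissue, among 10947 genes. Those of Dio2 were Cav1, the caveolae protein, at 0.0799, Slc2a1 at 0.118 and P4ha2, a collagen prolyl hydroxylase, at 0.118. Cav1 had 2.35 and 3.64 FPKM in KO neurospheres, against 14.9 and 13.4 FPKM in WT neurospheres, and 15.5 and 13.98 FPKM in KO cortex, against 17.1 and 16.6 FPKM in WT cortex. Like Dio2 it was low in the KO neurosphere pair and differed far less in cortex. Both KO cortex libraries of Cav1 were below both WT libraries, whereas those of Dio2 overlapped. Those of Thrsp were Ccdc80, a secreted matrix protein, at 0.104 and the immediate early genes Egr1 at 0.132 and Klf10 at 0.136. Egr1 had 53.9 and 50.2 FPKM in KO neurospheres, against 108.8 and 97.5 FPKM in WT neurospheres, and 6.47 and 5.801 FPKM in KO cortex, against 4.58 and 4.22 FPKM in WT cortex. All KO values of Egr1 were thus below WT in neurospheres and above WT in cortex, the order that Thrsp showed. Those of Klf9 were Eml1, Dffb and Adam15 (0.0539 to 0.0563), those of Hr were Gmppa, Tmem121 and Siah3 (0.0476 to 0.0643), and those of Nrgn were Atp5g2, Gtpbp10 and Gpx7 (0.076 to 0.101). These genes were picked for likeness over the same 8 libraries, which share tissue and genotype, so a shared order follows from the choice.

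**Figure D4:**
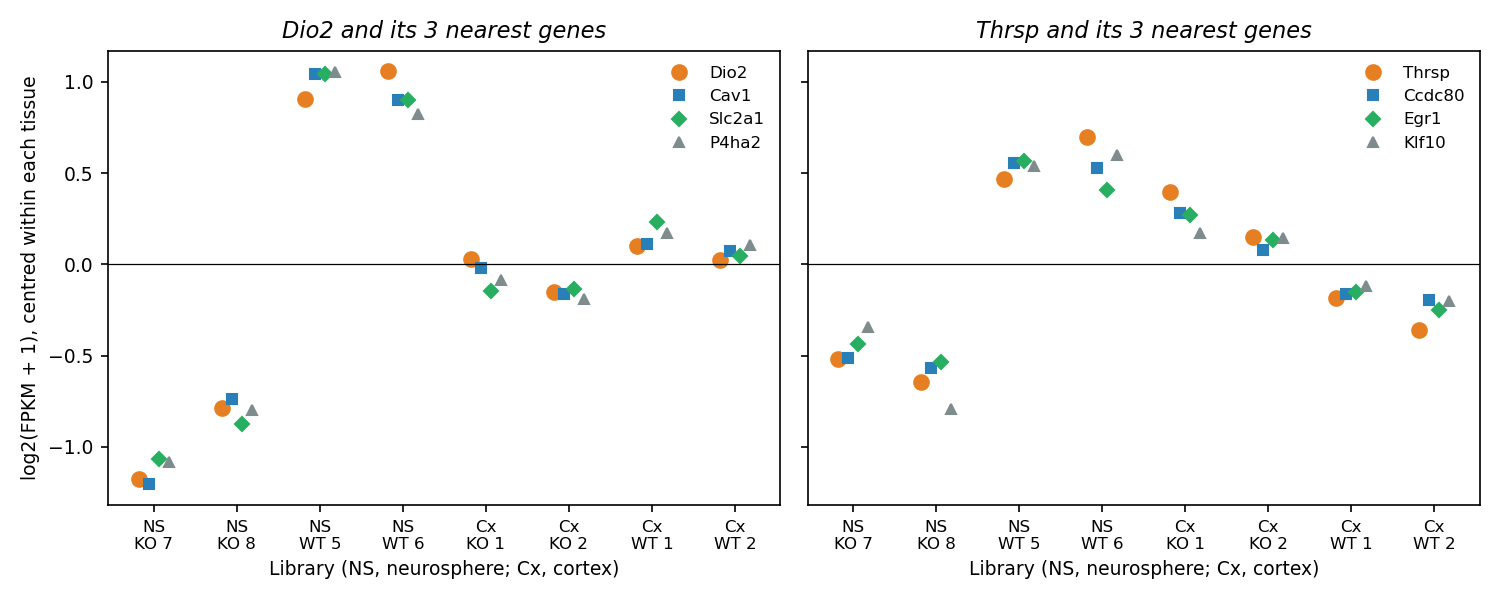
Log2(FPKM + 1), centred within each tissue, of Dio2 and its 3 nearest genes (left) and of Thrsp and its 3 nearest genes (right) in each of the 8 libraries, with KO left of WT within each tissue and markers set apart sideways. The nearest genes were picked for likeness over these libraries. Thrsp, Ccdc80, Egr1 and Klf10 lie below 0 in both KO neurosphere libraries and above 0 in both KO cortex libraries.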

How the data were processed

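The libraries were stranded, oligo-dT primed mRNA, per the labels' protocols, with 2 per group. The submitters' processing notes name Trim Galore, STAR, featureCounts, DESeq2, Bowtie, Cufflinks and mm9, and versions are not given in the sources used here. FPKM values and their bounds were made by the authors with Cufflinks, 1 run per library, per the file headers. The authors' deposited DESeq2 tables give a mean normalised count (a signal over all libraries of a tissue), a log2 fold change and p-values. Their direction is not stated and was read as KO over WT from Hdac3 and Gfap, set against their FPKM. Hdac3 is lower in KO there, though not called in neurospheres. Whether counting used strand is not stated. Rows whose symbols had turned into dates (20 in neurospheres and 21 in cortex) were dropped, and of a repeated symbol the entry with the highest mean was kept, leaving 11496 and 12056 genes.

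From the FPKM, those averaging at least 1 FPKM over the libraries of a tissue were tested on log2(FPKM + 1) with limma-trend 3.58.1 in R 4.3.3, each tissue alone, with Benjamini-Hochberg adjustment over all genes and a threshold of 0.05. Fold changes are on that scale, which understates the change of low genes. The difference between tissues was fitted over all 8 libraries. The code was tested on simulated data. A pseudocount of 0.1, no filter, 2 rescalings, a pooled spread and left-out libraries were tried. Nothing in the labels pairs KO 1 with WT 1. Genes were named if they are members, named receptors, transporters and corepressors, or among the up to 4 largest changes per list that passed. The members and lists were chosen with earlier results of these data known. Coordinates are those of RefSeq on GRCm38.p6 and were not converted to mm9. 5 of the 6 members matched the RefSeq promoter table. Values of some listed genes are not reported here.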

Additional observations from a re-analysis of the deposited data

Results flagged for a closer look

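Each result here was flagged because the KO effect differed between the tissues by the test of that difference, the log2 effect in cortex minus that in neurospheres (limma-trend, adjusted p under 0.05). Among the thyroid hormone genes these were Dio2, at 1.84, and Thrsp, at 1.70. Among the hypoxia response genes they were Bnip3 (1.92), Ldha (1.73), Slc2a1 (1.66), Egln3 (1.42), Vegfa (1.41), Pgk1 (1.24) and Pdk1 (1.16). Among the marker genes with a higher effect in cortex were the radial glia gene Hopx (2.28), whose effect was 1.01 in cortex and -1.26 in neurospheres, the astrocyte genes Slc1a3 (1.41) and Sparcl1 (1.31), and the excitatory neuron genes Nefm (1.26) and Camk2a (0.80). The interneuron genes Gad1 (-1.25), Dlx1 (-1.08), Lhx6 (-1.06) and Gad2 (-1.01) had a lower effect in cortex than in neurospheres, where they were higher in KO.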

How the results depend on the processing

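No member changed direction under any alternative tried. In neurospheres Thrsp no longer passed after median-ratio rescaling (-1.01, adjusted p = 0.0553), and Nrgn passed with the spread of all 8 libraries (-1.27). Leaving out 1 neurosphere library in turn gave -2.16 to -1.77 for Dio2, -1.28 to -1.05 for Thrsp and -1.57 to -0.98 for Nrgn. Neither Dio2 nor Thrsp passed without WT 5 or without WT 6, and Nrgn passed without KO 7 or without KO 8. In cortex Klf9 (0.34 and 0.35) and Hr (0.38 and 0.42) passed with median-ratio and quantile scaling, and Thrsp did not with the spread of all 8 libraries (0.54). Leaving out 1 cortex library gave 0.42 to 0.67 for Thrsp, which did not pass without KO 1. The difference between tissues ranged over 1.65 to 2.03 for Dio2 and 1.58 to 1.83 for Thrsp with 1 library left out, and did not pass without any 1 cortex library. It ranged over 0.55 to 1.02 for Klf9, which passed without neurosphere KO 7, and 0.85 to 1.44 for Nrgn, which passed without neurosphere WT 6. The cause of these changes was not tested.

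Counts moved more. In neurospheres 25 genes were higher and 106 lower, against 11 and 54 with a pseudocount of 0.1, 52 higher with median-ratio and 69 higher with quantile scaling, 330 and 1340 with the spread of all 8 libraries, and 0 to 55 higher and 0 to 617 lower with 1 library left out. Counts of 0 came from limma-trend without WT 5 or WT 6, where Dio2 and Thrsp had unadjusted p of 0.00114 to 0.00334. In cortex 575 were higher and 2124 lower, against 1146 and 929 with median-ratio scaling, 984 and 940 with quantile scaling, 1 and 5 with the spread of all 8 libraries, and 198 to 625 higher and 609 to 1535 lower with 1 library left out. Between tissues 107 differences were above 0 and 46 below, against 76 below with median-ratio and 93 below with quantile scaling, and 3 to 774 above and 0 to 388 below with 1 library left out.

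KO and WT cortex libraries share only the numbers 1 and 2. The correlation of KO 1 with WT 1, as deviations from their group means over 11988 genes, was -0.0955. With the number as a replicate block, 559 genes were higher and 1968 lower, and no member's call changed (Thrsp 0.54, adjusted p = 0.0039; Hr 0.0681; Klf9 0.0883). Neurosphere numbers are not shared.

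With 2 libraries per group, p-values rest on a spread borrowed across genes. FPKM carry no exact read counts, so a count test was not run. Genes under 1 FPKM in WT, Dio3 included, are outside the FPKM tables, and the fewest implied fragments, 33 to 153 per library, were those of Nrgn in neurospheres.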
